A study of Homo sapiens with 12 samples.

Results

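CXCR4, CNR1, GPR55, PTGFR, TACR1 and ADGRE2 encode G protein-coupled receptors of 5 families, and they were described across 12 libraries of U251 cells, an established human glioblastoma line. The 6 genes are those of the table's 27685 that had been picked from earlier results of the same data, because they were lower with interferon gamma (IFNγ) or because they differed strongly between the hairpin lines. That choice used the measured values and no numerical limit, so every level and difference of the 6 genes is given here as a description with no test. All 6 passed the filter on low counts that left 15769 genes. The table holds 354 other receptor genes of the same class, 133 of which passed the filter, and these were tested.

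The 4 groups, each with 3 libraries, were shINCA1 cells treated for 24 h with IFNγ, untreated shINCA1 cells, shCTRL cells treated for 24 h with IFNγ, and untreated shCTRL cells. shINCA1 cells stably carried a short hairpin RNA against the noncoding RNA that the study calls INCA1, and shCTRL cells a control hairpin, all at passages 14 to 18. As far as the labels tell, each hairpin was 1 line, so a difference between hairpins is also a difference between lines. The labels do not state whether the 3 libraries of a group are separate cultures. The p-values therefore cover only the spread between these libraries, which may be technical. The level of the targeted RNA was not analysed here, since the table's INCA1 entry is another, protein-coding gene.

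G protein-coupled receptors span the cell membrane and switch a heterotrimeric G protein when their ligand binds. Gi-coupled receptors such as CXCR4 and CNR1 restrain adenylyl cyclase, Gq-coupled receptors such as PTGFR and TACR1 drive phospholipase C and calcium release, and arrestins, receptor kinases and RGS proteins end the signal. In glioma, CXCR4 is known from cell migration and TACR1 from the response to substance P, CNR1 and GPR55 respond to lipids, and ADGRE2 is an adhesion receptor known mostly from myeloid cells.

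Libraries held 46525032 to 66242859 estimated counts and 16724 to 17216 genes above 0. Markers of glioma and astrocytes summed to 2911 to 2961 CPM (counts per scaled library total) in IFNγ shINCA1, 2867 to 2897 in untreated shINCA1, 3396 to 3496 in IFNγ shCTRL and 3433 to 3537 in untreated shCTRL libraries. The 9 myeloid markers summed to 11.4 to 13.1, 11.8 to 12.001, 13.8 to 15.3 and 12.9 to 14.6 CPM in the same order of groups, with AIF1, TYROBP and SPI1 listed at 0 in all 4. Lymphoid markers summed to at most 0.157 CPM in any library. Endothelial markers summed to 15.1 to 17.4, 9.65 to 11.4, 9.39 to 10.3 and 7.09 to 7.87 CPM, and neuronal markers to 18.7 to 19.0, 16.4 to 18.1, 11.2 to 13.3 and 9.35 to 11.6 CPM. Epithelial markers, mostly keratins, summed to 267 to 269 and 240 to 262 CPM in IFNγ and untreated shINCA1 libraries, against 89.8 to 94.6 and 93.3 to 96.4 CPM in IFNγ and untreated shCTRL libraries. The endothelial sums were higher with IFNγ in both lines without overlap. The glioma, myeloid, endothelial, neuronal and epithelial sums did not overlap between lines in either treatment. Glioma and myeloid sums were lower in shINCA1 cells, and endothelial, neuronal and epithelial sums were higher. The part of these sums in the differences of the 6 receptors was not tested. In bulk RNA, fewer cells expressing a receptor and less of its RNA per cell cannot be told apart.

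**Figure D1:**
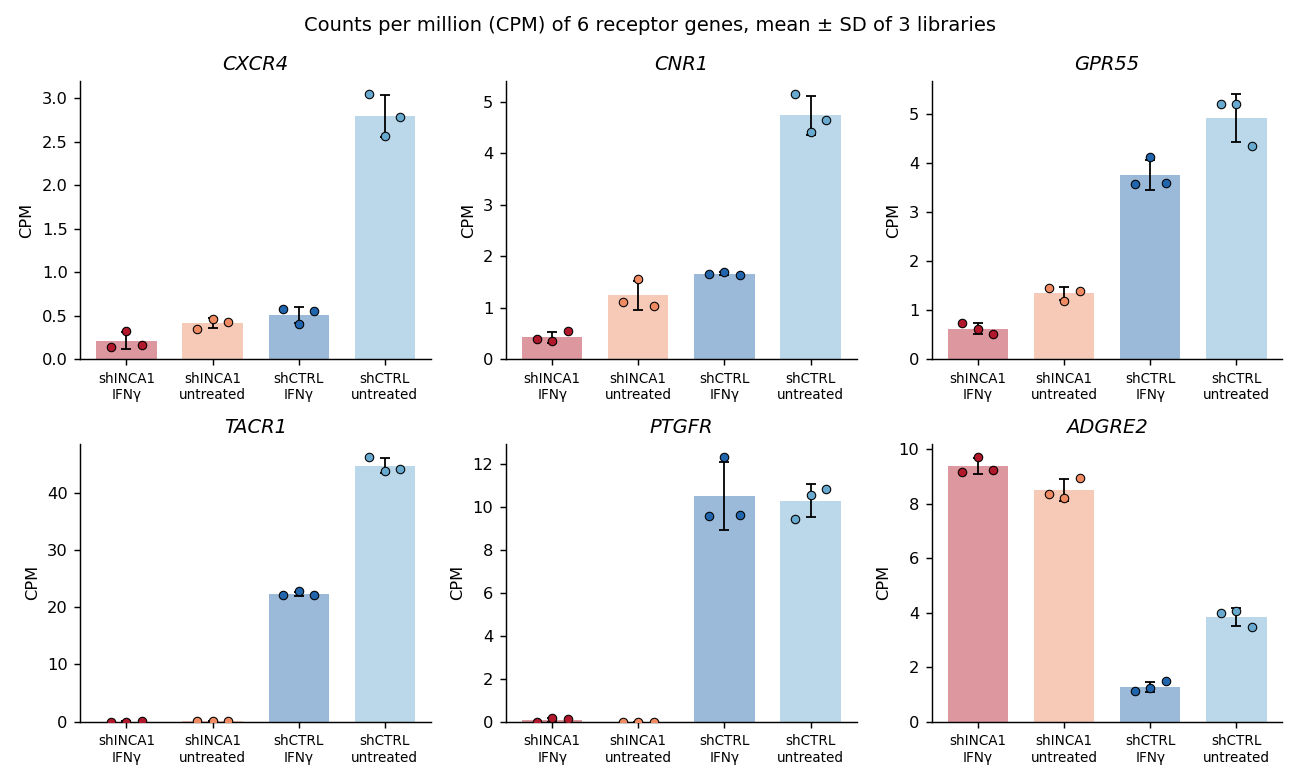
CPM of the 6 receptor genes in each library (points) with the mean and SD of the 3 libraries of a group (bars), each panel with its own axis from 0. ADGRE2 is higher in both shINCA1 groups than in both shCTRL groups, while the other 5 genes are higher in untreated shCTRL than in both shINCA1 groups.

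CXCR4 encodes the receptor of the chemokine CXCL12. Its libraries had 0.139, 0.326 and 0.167 CPM in IFNγ shINCA1 and 0.348, 0.466 and 0.430 CPM in untreated shINCA1 cells. In shCTRL cells they had 0.581, 0.408 and 0.548 CPM with IFNγ, against 3.05, 2.57 and 2.79 CPM without. Untreated shCTRL cells stood alone at the top, and the levels of IFNγ shCTRL and untreated shINCA1 libraries overlapped.
The fitted log2 difference of CXCR4 with IFNγ was -0.99 ± 0.32 (SE) in shINCA1 and -2.45 ± 0.28 in shCTRL cells, and these responses differed by 1.46 ± 0.43. Between lines it was -1.28 ± 0.32 with IFNγ and -2.75 ± 0.28 without. The IFNγ shINCA1 values rest on 8, 16 and 9 estimated counts, and about 3 of these units are taken to stand for 1 fragment. On the fragments, the untreated over IFNγ ratio in shINCA1 cells was 2.02 with a 95% exact interval of 0.979 to 4.60 that covers counting error only. Without IFNγ shINCA1 library 2, the IFNγ difference in shINCA1 cells was -1.43, the difference between lines with IFNγ -1.72 and the difference of responses 1.03.

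The 3 ligand genes listed for CXCR4 gave no tested value. CXCL12 and DPP4, a peptidase that trims CXCL12, were listed at 0 in every library, and the alternative ligand gene MIF was listed at 0.0826 CPM or less on average in every group. MIF is usually abundant in cultured cells, so its listed value is not read as absence of the RNA. ACKR3 encodes the atypical receptor that also binds CXCL12. It had 0.105, 0 and 0.111 CPM in IFNγ shINCA1 and 0, 0.0998 and 0 CPM in untreated shINCA1 cells, against 4.73, 3.84 and 4.74 CPM in IFNγ and 7.34, 7.49 and 8.61 CPM in untreated shCTRL cells. It was 58.9 times lower in shINCA1 than in shCTRL cells with IFNγ (95% exact interval 22.7 to 218, edgeR quasi-likelihood adjusted p = 8.25e-07) and 241 times lower without (66.3 to 1997, adjusted p = 1.36e-07). The untreated shINCA1 value rests on 6 counts, all in library 2, without which ACKR3 was at 0 in that group, and the fitted log2 difference of -7.82 was -7.21 without library 3. Its IFNγ difference did not pass the test in shCTRL (-0.82 ± 0.30, adjusted p = 0.094) or shINCA1 cells (adjusted p = 0.638). The chemokine receptor gene CCR6 was lower in shINCA1 cells with IFNγ (-1.60 ± 0.39, adjusted p = 0.00408) and without (-1.50 ± 0.39, adjusted p = 0.00598).

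CNR1 encodes the cannabinoid receptor CB1, which binds anandamide and 2-arachidonoylglycerol. It had 0.383, 0.347 and 0.537 CPM in IFNγ shINCA1 and 1.11, 1.56 and 1.04 CPM in untreated shINCA1 cells. In shCTRL cells it had 1.66, 1.69 and 1.63 CPM with IFNγ, against 5.15, 4.41 and 4.66 CPM without. No group overlapped with another, and within each line the IFNγ libraries were the lower ones.
The log2 difference of CNR1 with IFNγ was -1.54 ± 0.21 in shINCA1 and -1.51 ± 0.18 in shCTRL cells, and the responses differed by -0.03 ± 0.24. With each library left out in turn, this difference of responses ranged from -0.26 (without IFNγ shINCA1 library 3) to 0.16. Between lines the log2 difference of CNR1 was -1.97 ± 0.21 with IFNγ and -1.94 ± 0.18 without. CNR1 is on chromosome 6, whose 751 tested genes had a median difference between lines of -0.62 with IFNγ and -0.60 without. The 20 nearest tested genes in RefSeq's GRCh38.p14 gene order had a median of -0.77 with IFNγ, with 18 of the 20 lower in shINCA1, and of -0.56 without, with 19 of the 20 lower. CNR1 differed from that median by -1.19 with IFNγ and by -1.38 without.

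Of 13 tested genes that make, carry or break down the lipid ligands of CNR1, 1 was lowered in shINCA1 cells, where 2.95% of all tested genes were lowered and 6.13% raised, and 1 in shCTRL cells, where the shares were 7.51% and 9.72%. The gene lowered in shINCA1 was ABHD4 (-0.28 ± 0.04, adjusted p = 9.19e-04), an enzyme of anandamide synthesis. The gene lowered in shCTRL was MGLL (-0.37 ± 0.11, adjusted p = 0.034), which degrades 2-arachidonoylglycerol. The MGLL call did not hold without IFNγ shINCA1 library 3, IFNγ shCTRL library 1 or 3, or any 1 of the untreated shCTRL libraries. Between lines with IFNγ, 3 of the 13 were higher and 5 lower in shINCA1 cells, against 28.7% and 30.2% of all tested genes, and without IFNγ 3 were higher and 4 lower, against 27.4% and 29.5%. DAGLB, a diacylglycerol lipase that makes 2-arachidonoylglycerol, averaged 36.2 ± 0.88 CPM in IFNγ shINCA1 and 22.9 ± 2.17 CPM in IFNγ shCTRL cells (SD, n = 3 each), a log2 difference of 0.66 ± 0.07 (adjusted p = 8.01e-06). FABP7, a fatty acid binding protein of glia that carries such lipids, averaged 18.6 ± 3.22 CPM in IFNγ shINCA1 and 72.8 ± 13.03 CPM in IFNγ shCTRL cells (SD, n = 3 each), a difference of -1.96 ± 0.15 (adjusted p = 3.55e-07).

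GPR55 encodes a receptor of lysophosphatidylinositol. It had 0.732, 0.612 and 0.518 CPM in IFNγ shINCA1 and 1.45, 1.18 and 1.39 CPM in untreated shINCA1 cells. In shCTRL cells it had 3.57, 4.12 and 3.59 CPM with IFNγ, against 5.20, 5.20 and 4.35 CPM without. The 4 groups did not overlap, but in shCTRL cells the highest IFNγ library was close to the lowest untreated one.
The log2 difference of GPR55 with IFNγ was -1.10 ± 0.16 in shINCA1 and -0.39 ± 0.13 in shCTRL cells, and the responses differed by -0.72 ± 0.21. Between lines it was -2.59 ± 0.16 with IFNγ and -1.87 ± 0.14 without. The untreated over IFNγ ratio in shCTRL cells was 1.30, with a 95% exact interval on fragments of 1.08 to 1.56.
Of 5 tested genes that make or remodel lysophosphatidylinositol, none was called with IFNγ in shINCA1 cells by edgeR's quasi-likelihood test or by the DESeq2 Wald test, and 1 had an unadjusted p under 0.05. In shCTRL cells the acyltransferase gene LPCAT1 rose by 0.11 ± 0.03 (adjusted p = 0.0351), and the phospholipase gene DDHD1 fell by 0.17 ± 0.05 (adjusted p = 0.0478). The LPCAT1 call was lost without any 1 of 9 libraries, all but untreated shINCA1 library 2, IFNγ shINCA1 library 3 and IFNγ shCTRL library 1. The DDHD1 call was lost without any 1 of 8, all but untreated shINCA1 library 1, IFNγ shINCA1 library 2 or 3 and untreated shCTRL library 1. Neither call held in the fit of only the groups compared, where the adjusted p was 0.0759 for LPCAT1 and 0.0653 for DDHD1. The shares over all tested genes were 6.13% raised and 2.95% lowered in shINCA1, and 9.72% and 7.51% in shCTRL cells. Between lines, 3 of the 5 were higher and none lower in shINCA1 cells with IFNγ, beside 28.7% and 30.2% of all tested genes. Without IFNγ 4 were higher and none lower, beside 27.4% and 29.5%. Whether the list differs from all tested genes was not tested.

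Other lysolipid receptors took several directions. S1PR3, a sphingosine 1-phosphate receptor gene, had 14.1, 14.4 and 13.6 CPM in IFNγ shINCA1 against 10.2, 9.99 and 9.85 CPM in untreated shINCA1 cells. It had 33.0, 34.4 and 34.7 CPM in IFNγ shCTRL against 16.1, 15.5 and 17.0 CPM in untreated shCTRL cells. S1PR3 thus rose with IFNγ in both lines, by 0.49 ± 0.05 in shINCA1 (adjusted p = 4.38e-05) and 1.07 ± 0.05 in shCTRL cells (adjusted p = 1.77e-08), and less in shINCA1 (difference of responses -0.58 ± 0.07, adjusted p = 0.00132). The lysophosphatidic acid receptor gene LPAR6 rose by 0.46 ± 0.08 in shINCA1 (adjusted p = 0.00189) and 0.36 ± 0.07 in shCTRL cells (adjusted p = 0.00575). LPAR4 was lower in shINCA1 than in shCTRL cells by -1.78 ± 0.39 on the log2 scale with IFNγ (adjusted p = 0.002) and -1.44 ± 0.37 without (adjusted p = 0.00516), while LPAR1 was higher, by 2.58 ± 0.49 (adjusted p = 7.24e-04) and 1.86 ± 0.47 (adjusted p = 0.00488). The second cannabinoid receptor gene, CNR2, averaged at most 0.0370 CPM in any group and was not tested.

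PTGFR encodes the receptor of prostaglandin F2α. It had 0, 0.184 and 0.111 CPM in IFNγ shINCA1 cells and 0 in all 3 untreated shINCA1 libraries, against 9.61, 12.3 and 9.62 CPM in IFNγ and 9.43, 10.6 and 10.9 CPM in untreated shCTRL cells. The shINCA1 values with IFNγ are 0, 9 and 6 estimated counts, so PTGFR RNA was near or under what these libraries can show. All shINCA1 libraries were below all shCTRL libraries, and in shCTRL cells the IFNγ and untreated libraries overlapped.
With IFNγ, PTGFR was 114 times lower in shINCA1 than in shCTRL cells (95% exact interval on fragments 48.4 to 351). The fitted log2 difference was -6.78, against -6.15 without IFNγ shINCA1 library 1 and -7.55 without library 2. Without IFNγ PTGFR was 211-fold lower against a floor of 3 counts in each library, which is 0.0487 CPM. The lower limit of the 95% exact interval on fragments was 171. In shCTRL cells the log2 difference with IFNγ was 0.03 ± 0.23, and no fold is given for shINCA1 cells.

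PTGER2, which encodes a prostaglandin E2 receptor coupled to Gs, was placed the other way round from PTGFR. It had 1.06, 1.33 and 0.907 CPM in IFNγ shINCA1 and 1.85, 1.75 and 1.69 CPM in untreated shINCA1 cells, against 0, 0.0941 and 0 CPM in IFNγ shCTRL cells and 0 in all untreated shCTRL libraries. Against the floor of 3 counts in each library, it was 31.8-fold higher in untreated shINCA1 than in untreated shCTRL cells (95% exact lower limit 25.4, edgeR quasi-likelihood adjusted p = 2.88e-05). With IFNγ it was 31.3 times higher (95% exact interval 8.24 to 263, adjusted p = 1.92e-04). The 6 counts of IFNγ shCTRL cells are all in library 2, without which PTGER2 was at 0 in that group, so this ratio is poorly known. PTGER4, another prostaglandin E2 receptor gene, was lower in shINCA1 cells by -0.56 ± 0.15 with IFNγ (adjusted p = 0.0071) and -0.79 ± 0.15 without (adjusted p = 8.19e-04), and the thromboxane receptor gene TBXA2R by -0.93 ± 0.23 (adjusted p = 0.00385) and -0.82 ± 0.22 (adjusted p = 0.00719).
Of 16 tested genes of prostaglandin synthesis and handling, none was called with IFNγ in shINCA1 cells by edgeR, where 2 had an unadjusted p under 0.05 and the DESeq2 Wald test called 2. In shCTRL cells 2 rose and 2 fell. Of all tested genes 6.13% rose and 2.95% fell in shINCA1, and 9.72% and 7.51% in shCTRL cells. Between lines, 3 of the 16 were higher and 6 lower in shINCA1 with IFNγ, beside 28.7% and 30.2% of all tested genes. Without IFNγ 4 were higher and 4 lower, beside 27.4% and 29.5%. AKR1C3, an aldo-keto reductase with prostaglandin F synthase activity, averaged 15.6 ± 1.31 CPM in IFNγ shINCA1 and 17.8 ± 0.46 CPM in untreated shINCA1 cells, against 52.9 ± 2.35 CPM in IFNγ and 62.8 ± 2.28 CPM in untreated shCTRL cells (SD, n = 3 each). It was lower in shINCA1 by -1.76 ± 0.06 on the log2 scale with IFNγ (adjusted p = 4.24e-10) and -1.82 ± 0.06 without (adjusted p = 2.88e-10), and it fell with IFNγ by 0.25 ± 0.06 in shCTRL cells (adjusted p = 0.0113). AKR1B1, a reductase with the same activity, was higher in shINCA1 by 0.30 ± 0.03 with IFNγ (adjusted p = 4.52e-06) and 0.42 ± 0.03 without (adjusted p = 2.09e-07). PTGFRN, which encodes a protein that binds the receptor and lowers its ligand binding, was higher in shINCA1 by 0.65 ± 0.03 with IFNγ (adjusted p = 1.11e-09) and 0.60 ± 0.03 without (adjusted p = 2.18e-09).

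TACR1 encodes the receptor of substance P. It had 0, 0 and 0.111 CPM in IFNγ shINCA1 and 0.104, 0.200 and 0.134 CPM in untreated shINCA1 cells, against 22.1, 22.8 and 22.1 CPM in IFNγ and 46.2, 43.8 and 44.1 CPM in untreated shCTRL cells. Every shINCA1 library was far below every shCTRL library, and in shCTRL cells all IFNγ libraries were below all untreated ones. The shINCA1 libraries hold 0, 0 and 6 estimated counts with IFNγ and 6, 12 and 9 without, and their CPM overlap.
With IFNγ, TACR1 was 598 times lower in shINCA1 than in shCTRL cells, with a 95% exact interval of 165 to 4941 on fragments. All 6 shINCA1 counts, about 2 fragments, are in library 3, so the size of this ratio is poorly known. The fitted log2 difference was -9.14, against -8.53 without IFNγ shINCA1 library 1, and no ratio remains without library 3. Without IFNγ it was 307 times lower (161 to 672). In shCTRL cells the log2 difference with IFNγ was -1.001 ± 0.15, and no fold is given for shINCA1 cells.
The tachykinin precursor genes TAC1 and TAC4 were listed at 0 in every library and TAC3 at 0.0185 CPM on average in IFNγ shINCA1 cells and at 0 in the other groups, and the other tachykinin receptor genes TACR2 and TACR3 were not tested. Of 4 tested peptidase genes, none was called with IFNγ in shINCA1 cells by edgeR or DESeq2, where 1 had an unadjusted p under 0.05, and 1 fell in shCTRL cells. That was PREP, prolyl endopeptidase, which cleaves substance P (-0.24 ± 0.03, adjusted p = 1.41e-04). Of all tested genes 6.13% rose and 2.95% fell in shINCA1, and 9.72% and 7.51% in shCTRL cells. With 4 genes, the absence of a call in shINCA1 cells says little about the list. Between lines, 2 of the 4 were higher and 1 lower in shINCA1 with IFNγ, beside 28.7% and 30.2% of all tested genes. Without IFNγ 3 were higher and 1 lower, beside 27.4% and 29.5%. PREP was lower in shINCA1 than in shCTRL cells by -0.20 ± 0.03 with IFNγ (adjusted p = 1.34e-04) and -0.37 ± 0.03 without (adjusted p = 7.56e-07). MME, neprilysin, a membrane enzyme that degrades substance P, averaged 16.04 ± 1.84 CPM in IFNγ shINCA1 and 16.7 ± 1.49 CPM in untreated shINCA1 cells, against 9.31 ± 0.31 CPM in IFNγ and 9.25 ± 0.24 CPM in untreated shCTRL cells (SD, n = 3 each). Its log2 difference between lines was 0.78 ± 0.09 with IFNγ (adjusted p = 8.98e-06) and 0.85 ± 0.09 without (adjusted p = 4.58e-06).

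ADGRE2 encodes an adhesion receptor with EGF-like repeats that binds chondroitin sulfate, and it is the one of the 6 that was higher in shINCA1 cells. It had 9.17, 9.71 and 9.24 CPM in IFNγ shINCA1 and 8.36, 8.20 and 8.95 CPM in untreated shINCA1 cells, against 1.12, 1.22 and 1.48 CPM in IFNγ and 3.98, 4.07 and 3.47 CPM in untreated shCTRL cells. The groups did not overlap. IFNγ libraries were the higher ones in shINCA1 cells, by a small margin, and the lower ones in shCTRL cells.
The log2 difference of ADGRE2 with IFNγ was 0.14 ± 0.09 in shINCA1 and -1.58 ± 0.11 in shCTRL cells, and the responses differed by 1.72 ± 0.14. Between lines it was 2.87 ± 0.11 with IFNγ, which is 7.32-fold, and 1.15 ± 0.10 without, which is 2.21-fold.
Reads of ADGRE2 may be shared with its neighbour in sequence, ADGRE5. Of 7556 stretches of 50 bases in ADGRE2 transcripts, 485 (6.42%) also occur in ADGRE5 transcripts, and the longest common run is 355 bases. Its first 120 bases are coding sequence of ADGRE2 exons 7 and 8 (GENCODE v44 transcripts, GRCh38, chr19:14765800-14766349, minus strand, with an intron between), shown because a fragment from them cannot be assigned to 1 of the genes by sequence.
ADGRE2 and ADGRE5, common run: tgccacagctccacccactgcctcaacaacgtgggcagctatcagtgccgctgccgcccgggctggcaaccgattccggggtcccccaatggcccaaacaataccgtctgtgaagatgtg
ADGRE5 averaged 149 ± 3.73 CPM in IFNγ shINCA1 and 125 ± 3.03 CPM in untreated shINCA1 cells, against 170 ± 1.21 CPM in IFNγ and 118 ± 6.02 CPM in untreated shCTRL cells (SD, n = 3 each). It rose with IFNγ by 0.25 ± 0.04 in shINCA1 (adjusted p = 7.54e-04) and 0.53 ± 0.04 in shCTRL cells (adjusted p = 7.40e-07), where ADGRE2 was lower. ADGRE1, another gene of the group, rose by 1.00 ± 0.19 in shINCA1 (adjusted p = 0.00556) and 1.13 ± 0.21 in shCTRL cells (adjusted p = 0.00233), and ADGRE3 was listed at 0. ADGRE2 also overlaps ZNF333 on the other strand, whose libraries had 2.63 to 3.66 CPM in IFNγ and 3.43 to 3.78 CPM in untreated shINCA1 cells, against 6.68 to 7.20 CPM in IFNγ and 7.25 to 8.61 CPM in untreated shCTRL cells. The kit marked strand, but whether the counting used strand is not stated in the labels, so reads of ADGRE2 and ZNF333 may not have been told apart. The other 5 receptors share no stretch of 50 bases with another gene. Among them, PTGFR overlaps the noncoding RNA gene MGC27382 on the same strand, which was listed at 0 in every library. GPR55 and TACR1 overlap annotated genes on the other strand only.

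Genes that build chondroitin and dermatan sulfate, the ligand class of ADGRE2, were also read. Of 16 tested, 1 rose and 2 fell with IFNγ in shINCA1 cells, beside 6.13% and 2.95% of all tested genes, and 2 rose and 4 fell in shCTRL cells, beside 9.72% and 7.51%. CHSY1, a chondroitin synthase, rose by 0.18 ± 0.03 in shINCA1 (adjusted p = 0.00379) and 0.29 ± 0.03 in shCTRL cells (adjusted p = 5.02e-05). The sulfotransferase genes CHST3 and UST fell, CHST3 by -0.23 ± 0.04 in shINCA1 (adjusted p = 0.003) and -0.34 ± 0.04 in shCTRL cells (adjusted p = 1.02e-04), and UST by -0.63 ± 0.07 in shCTRL cells (adjusted p = 4.67e-05), where ADGRE2 was lower as well. CHST15 fell by 0.24 ± 0.06 in shINCA1 cells (adjusted p = 0.0355), which did not hold without any 1 of the IFNγ shINCA1 libraries, untreated shINCA1 library 1 or 3, or IFNγ shCTRL library 3. Between lines, 7 of the 16 were higher and 6 lower in shINCA1 cells with IFNγ, and likewise 7 and 6 without, beside 28.7% and 30.2% of all tested genes with IFNγ and 27.4% and 29.5% without. CHST11, a chondroitin 4-sulfotransferase, was lower by -1.25 ± 0.08 with IFNγ (adjusted p = 9.24e-08) and -1.48 ± 0.08 without (adjusted p = 1.92e-08).

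**Figure D2:**
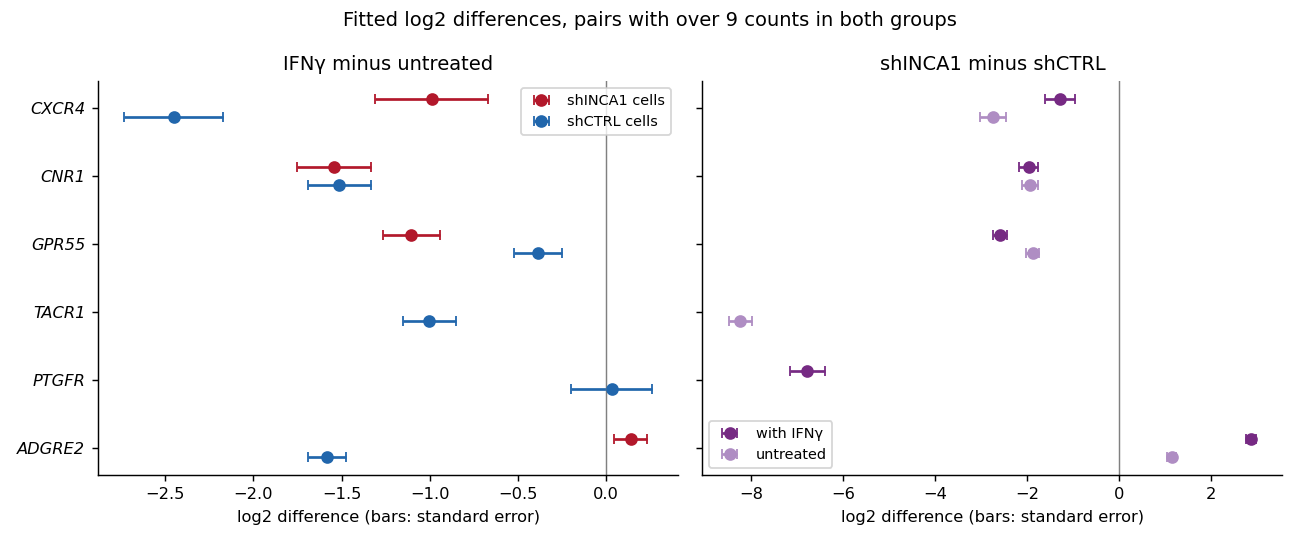
Fitted log2 differences of the 6 receptors with their standard errors, IFNγ minus untreated within each line (left) and shINCA1 minus shCTRL within each treatment (right), drawn only where both groups hold more than 9 estimated counts. CNR1 has nearly the same response in both lines, CXCR4 is lower by more in shCTRL, GPR55 by more in shINCA1, and ADGRE2 is lower with IFNγ in shCTRL alone.

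Set side by side, the responses of the 6 receptors to IFNγ differed in pattern. The plot of fitted differences shows CNR1 at -1.54 in shINCA1 and -1.51 in shCTRL cells, GPR55 at -1.10 and -0.39, CXCR4 at -0.99 and -2.45, and ADGRE2 at 0.14 and -1.58. In shINCA1 cells 3 of the 6 had all IFNγ libraries below all untreated ones and 1 had them above, and over all tested genes 11.4% were lower and 13.5% higher without overlap. In shCTRL cells 5 were lower without overlap and none higher, and over all tested genes the shares were 16.9% and 16.5%. Between lines 5 were lower and 1 higher in shINCA1 without overlap in both treatments. Over all tested genes, 33.8% were lower and 32.7% higher with IFNγ, and 32.4% and 30.4% without. These counts follow from how the 6 were chosen. The responses in shINCA1 and in shCTRL cells share no libraries, but each shares its libraries with the comparisons between lines.

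The order of the 4 groups was untreated shCTRL, IFNγ shCTRL, untreated shINCA1 and IFNγ shINCA1, from high to low, for CXCR4, CNR1, GPR55 and TACR1. Neighbours in this order overlapped for CXCR4 in its middle pair and for TACR1 in its lowest pair. PTGFR had both shCTRL groups overlapping at the top and both shINCA1 groups overlapping at the bottom. ADGRE2 alone had another order, IFNγ shINCA1, untreated shINCA1, untreated shCTRL and IFNγ shCTRL, with no overlap.
Among 130 receptor genes with counts enough for a response in shINCA1 cells, CNR1 had the lowest log2 difference, GPR55 ranked 3 and CXCR4 ranked 4 from the lowest. Among 128 in shCTRL cells, CXCR4 had the lowest, ADGRE2 ranked 3, CNR1 4 and TACR1 6. These ranks describe genes that were chosen for low values.

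Genes with the most similar pattern were taken by the Pearson r of log2 CPM over the 12 libraries, which fall into 4 groups, among genes with an average of at least 1 CPM. For CXCR4 they were FHDC1, CD58 and the thrombin receptor gene F2R, with r from 0.98 down to 0.97. For CNR1 they were ICK, FMNL2 and TMEM170B at 0.98 to 0.99, and for GPR55 KDM4A, VPS33A and the Notch ligand gene JAG1 at 0.98 to 0.99. PTGFR was most similar to DYNC1I2, AFF3 and SOX2-OT at 0.99, and TACR1 to BRK1, KIF20A and PTPRJ, all above 0.99. ADGRE2 was most similar to ANKRD1 at 0.99, with RNF43 and PLXNA2 at 0.98 and 0.97. ANKRD1 averaged 511 CPM in IFNγ and 478 CPM in untreated shINCA1, against 143 CPM in IFNγ and 254 CPM in untreated shCTRL cells. A high r here can come from the group levels alone, since the points share their groups and libraries.
Chromosome position was compared for the other receptors as well. The 20 nearest tested genes of CXCR4, GPR55 and TACR1 on chromosome 2, PTGFR on chromosome 1 and ADGRE2 on chromosome 19 had median differences between lines of -0.24 to -0.02 without IFNγ and -0.23 to -0.05 with IFNγ, each smaller than the difference of the receptor itself.

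Behind the receptors, genes of their signalling were read as 4 lists of 164 genes, of which 133 were tested. With IFNγ 6 rose and 7 fell in shINCA1 cells, and 17 rose and 17 fell in shCTRL cells. Over all tested genes 6.13% rose and 2.95% fell in shINCA1 cells, and 9.72% and 7.51% in shCTRL cells. With upper-quartile scaling these splits were 4 and 13 in shINCA1 and 12 and 21 in shCTRL cells, so the balance between rises and falls depended on the scaling. Between lines 39 were higher and 50 lower in shINCA1 with IFNγ, beside 28.7% and 30.2% of all tested genes, and 43 and 49 without, beside 27.4% and 29.5%. The list medians were -0.02 in shINCA1 and -0.03 in shCTRL cells for the response, and -0.04 with and -0.01 without IFNγ for the lines, against 0.00, -0.01, 0.00 and -0.01 over all tested genes. No partner gene was called for a difference of responses by edgeR, where 0.615% of all tested genes were raised and 1.1% lowered. Unadjusted, 15 of the 133 had a p under 0.05, and the DESeq2 Wald test called 4.

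Among 26 tested G protein subunits, GNB4, a beta subunit, rose with IFNγ by 0.49 ± 0.04 in shINCA1 (adjusted p = 1.20e-05) and 0.52 ± 0.04 in shCTRL cells (adjusted p = 3.29e-06). The alpha subunits that CXCR4 and CNR1 use differed between lines. GNAI2 averaged 233 ± 1.23 CPM in IFNγ shINCA1 and 245 ± 3.43 CPM in untreated shINCA1 cells, against 367 ± 8.40 CPM in IFNγ and 369 ± 15.6 CPM in untreated shCTRL cells (SD, n = 3 each), a log2 difference between lines of -0.65 ± 0.03 with IFNγ (adjusted p = 5.11e-09) and -0.59 ± 0.03 without (adjusted p = 1.22e-08). GNAO1, a related subunit of neural cells, was higher in shINCA1 by 1.81 ± 0.09 with IFNγ (adjusted p = 9.87e-09) and 1.66 ± 0.09 without (adjusted p = 1.68e-08). GNAQ, the alpha subunit that couples PTGFR and TACR1 to phospholipase C, was lower by -0.59 ± 0.06 in both treatments (adjusted p = 5.57e-06 with IFNγ and 5.87e-06 without).
Among 21 tested genes that end receptor signals, RGS7 was higher in shINCA1 by 2.92 ± 0.08 with IFNγ (adjusted p = 1.02e-10) and 3.16 ± 0.09 without (adjusted p = 7.24e-11), while RGS4 was lower by -1.07 ± 0.04 (adjusted p = 6.29e-10) and -1.31 ± 0.04 (adjusted p = 1.22e-10). RGS4, a brake on Gi and Gq, rose with IFNγ by 0.28 ± 0.04 in shINCA1 cells (adjusted p = 4.40e-04), and its change of 0.05 in shCTRL cells was not past the threshold (adjusted p = 0.464). The arrestin gene ARRB2 was higher in shINCA1 by 0.63 ± 0.03 with IFNγ (adjusted p = 1.10e-08) and 0.49 ± 0.03 without (adjusted p = 9.59e-08).
Among 33 tested effectors, ADCY1, a calcium-stimulated adenylyl cyclase, was higher in shINCA1 by 2.19 ± 0.10 with IFNγ (adjusted p = 4.94e-09) and 2.50 ± 0.11 without (adjusted p = 2.15e-09). ITPR2, a receptor that releases stored calcium, was lower by -1.35 ± 0.07 with IFNγ (adjusted p = 7.82e-09) and rose with IFNγ by 0.39 ± 0.06 in shCTRL cells (adjusted p = 0.00117). PDE4B, which degrades cyclic AMP, fell with IFNγ by 0.53 ± 0.14 in shINCA1 cells (adjusted p = 0.0402), but the adjusted p passed 0.05 when any 1 of the libraries other than IFNγ shINCA1 library 2 was left out, up to 0.132.

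Against the other 133 receptor genes tested, 9 rose and 8 fell with IFNγ in shINCA1 cells and 15 rose and 20 fell in shCTRL cells. Over all tested genes 6.13% rose and 2.95% fell in shINCA1 and 9.72% and 7.51% in shCTRL cells. In shINCA1 cells DESeq2 size factors gave 8 and 11 and upper-quartile scaling 8 and 14. Between lines 42 were higher and 44 lower in shINCA1 with IFNγ, where 28.7% and 30.2% of all tested genes were, and 41 and 44 without, where 27.4% and 29.5% were. Median differences were -0.08 in both responses, 0.02 between lines with IFNγ and 0.12 without, against -0.01 to 0.00 over all tested genes.

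**Figure D3:**
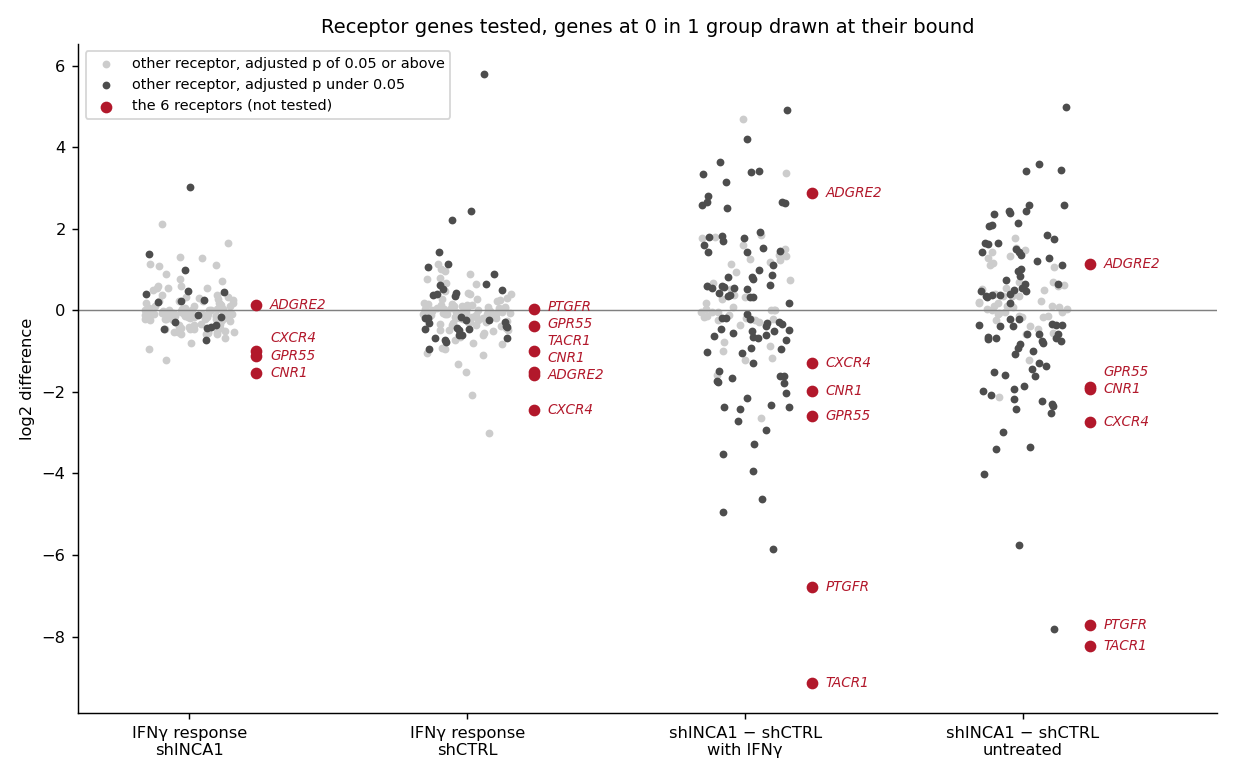
Log2 differences of all tested receptor genes in the 4 comparisons (y axis), with the 6 receptors in red and the others in dark grey where edgeR's adjusted p was under 0.05. Genes at 0 counts in all libraries of 1 group are drawn at the value that the floor gives, which the figure calls their bound. PTGFR and TACR1 are left out of the first column for their few counts. TACR1 has the lowest line difference drawn in both treatments, at its fitted value, which rests on 6 counts in IFNγ shINCA1 cells. Without IFNγ, PTGFR is drawn at the floor value, so its place above TACR1 depends on the floor.

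SSTR2, a somatostatin receptor gene, rose in both lines, while CXCR4, CNR1 and GPR55 were lower in both. It had 0.418, 0.306 and 0.463 CPM in IFNγ shINCA1 cells and 0 in every untreated shINCA1 library, and 12.9, 11.9 and 12.2 CPM in IFNγ shCTRL against 0.182, 0.212 and 0.270 CPM in untreated shCTRL cells. It rose at least 8.20-fold in shINCA1 (adjusted p = 6.05e-06) and by 5.79 ± 0.17 on the log2 scale in shCTRL cells (adjusted p = 6.31e-09), and with IFNγ it was 30.9 times lower in shINCA1 than in shCTRL cells (adjusted p = 3.53e-09). FZD5, a Wnt receptor gene, rose by 1.39 ± 0.10 in shINCA1 (adjusted p = 1.27e-06) and 1.44 ± 0.10 in shCTRL cells (adjusted p = 4.47e-07). GPRC5A, an orphan receptor gene, fell by 0.44 ± 0.05 in shINCA1 (adjusted p = 8.61e-05) and 0.73 ± 0.05 in shCTRL cells (adjusted p = 1.12e-06), a smaller change than that of CXCR4 or CNR1 in either line.
Like PTGFR in untreated cells, some other receptors were at 0 in 1 line. EDNRB, an endothelin receptor gene, was at 0 in all 6 shINCA1 libraries, at least 24.6-fold below shCTRL cells with IFNγ (adjusted p = 1.48e-06) and 54.4-fold below without (adjusted p = 5.44e-07). The adhesion receptor genes ADGRL4 and ADGRB3 were at 0 in shINCA1 cells too. Against the floor they were 15.3-fold and 9.73-fold below shCTRL cells with IFNγ (lower limits 11.9 and 7.37). Without IFNγ they were 16.1-fold and 10.5-fold below (lower limits 12.7 and 8.05). In the other direction, GPR65, a proton-sensing receptor gene, and ADCYAP1R1, the receptor gene of the neuropeptide PACAP, were at 0 in shCTRL cells. Against the floor they were 10.1-fold and 8.82-fold higher in shINCA1 cells with IFNγ (lower limits 7.62 and 6.75, adjusted p = 2.40e-04 and 1.19e-04). Without IFNγ they were 4.41-fold and 12.1-fold higher (lower limits 3.16 and 9.37, adjusted p = 9.08e-04 and 7.45e-05).

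**Figure D4:**
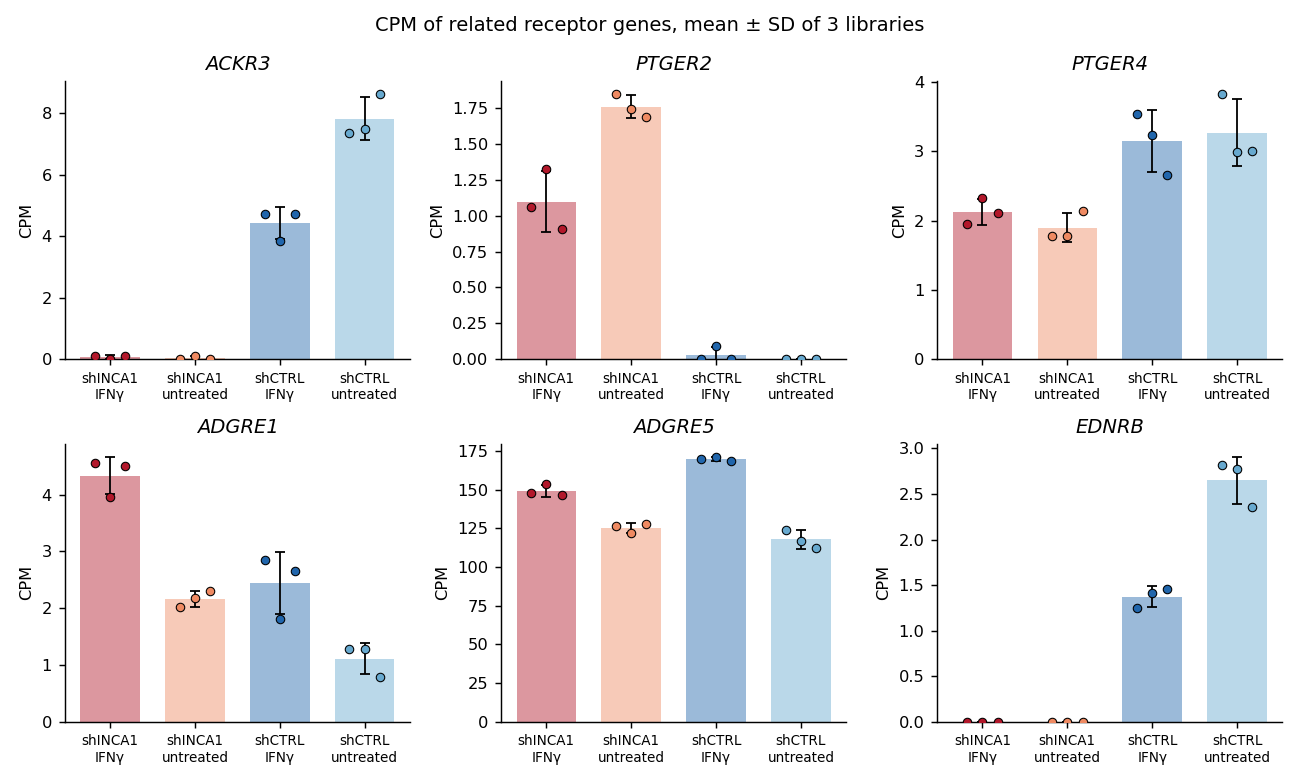
CPM per library (points), mean and SD of 3 libraries (bars) for 6 receptor genes related to the 6 or set beside them, each panel with its own axis from 0. ACKR3 and EDNRB sit at or near 0 in both shINCA1 groups, PTGER2 in both shCTRL groups, and ADGRE1 and ADGRE5 are higher with IFNγ in both lines.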

How the data were processed

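RNA from 12 U251 libraries was sequenced on an Illumina NovaSeq6000 after a stranded mRNA preparation, per the labels' protocols. FastQC, Trimmomatic, HISAT2, StringTie and the hg19 build are named per the submitters' processing notes, while versions, order, annotation and strand setting were not stated there. The authors deposited 1 table of estimated counts per gene. All are whole numbers, and low values pile up at multiples of 3, so about 3 units were taken to stand for 1 fragment. This is an assumption, since the value 1 occurs 3681 times and 2 occurs 2186 times, against 5790 times for 3. The intervals on fragments rest on it. A floor of 3 counts per library was used for groups at 0. A ratio against this floor is not a minimum. Exact 95% intervals were computed on fragments and cover counting error only.

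Genes were filtered with filterByExpr on the 4 groups, scaled by TMM and fitted over all 12 libraries in 1 model with edgeR 4.0.16 (quasi-likelihood test, Benjamini-Hochberg adjustment over 15769 genes, threshold 0.05) in R 4.3.3. Log2 differences and standard errors are from that fit. CPM are per gene and not per length, so levels were not compared between genes. Contrasts were IFNγ minus untreated in each line, shINCA1 minus shCTRL in each treatment, and the difference of the IFNγ responses. The procedure was also run on simulated data, and the outcome is not reported here. The 6 receptors and all gene lists were chosen with earlier results of these data known. From the other receptors, up to 5 raised and 5 lowered genes with the largest log2 difference among those past the threshold could be named per comparison, and from each of the 4 signalling lists up to 4 with the smallest p. Ligand genes and family receptors of the 6 could be named with their receptor. The 3 genes most like each receptor were those with the highest Pearson r of log2 CPM (prior count 2). GNAQ was named after its values were seen.

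Alternatives were DESeq2 size factors and upper-quartile scaling, other filters, the DESeq2 1.42.0 Wald test, limma-voom (limma 3.58.1), a replicate block, a fit of only the groups compared, an adjusted p of 0.01, counts divided by 3, subtraction of the neighbours' median, and leaving out each library in turn. Shared stretches come from GENCODE v44 transcripts. A search of promoters for motifs is not reported here.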

Additional observations from a re-analysis of the deposited data

Results flagged for a closer look

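For 7 of the 133 tested receptor genes outside the 6, the response to IFNγ differed between shINCA1 and shCTRL cells. The test was edgeR's quasi-likelihood test of the difference itself, adjusted over all tested genes. The difference was above 0 for 2 and below 0 for 5, where 0.615% and 1.1% of all tested genes were. HTR7, a serotonin receptor gene, averaged 57.3 CPM in IFNγ against 48.7 CPM in untreated shINCA1 cells and 44.03 CPM in IFNγ against 23.8 CPM in untreated shCTRL cells, a difference of responses of -0.65 ± 0.06 on the log2 scale (adjusted p = 2.76e-04). The S1PR3 difference was -0.58 ± 0.07 (adjusted p = 0.00132). F2R, the thrombin receptor gene, averaged 91.1 CPM in IFNγ against 98.7 CPM in untreated shINCA1 cells and 97.5 CPM in IFNγ against 126 CPM in untreated shCTRL cells, a difference of 0.26 ± 0.04 (adjusted p = 0.00413). These 3 calls held without any 1 library.

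The other four calls did not hold without some libraries. ADGRG1, an adhesion receptor gene, averaged 118 CPM in IFNγ against 144 CPM in untreated shINCA1 cells and 34.7 CPM in IFNγ against 53.0 CPM in untreated shCTRL cells, a difference of 0.32 ± 0.06 (adjusted p = 0.0164, and 0.0555 without IFNγ shINCA1 library 3). GPR1, a chemerin receptor gene, had a difference of -0.72 ± 0.14 (adjusted p = 0.0217), lost without IFNγ shINCA1 library 1 or 2, untreated shINCA1 library 3, IFNγ shCTRL library 1, or untreated shCTRL library 1 or 2, with adjusted p up to 0.0695. GPR39, a zinc-sensing receptor gene, had -0.42 ± 0.08 (adjusted p = 0.0244), lost without any 1 of 10 libraries, all but IFNγ shINCA1 library 1 and untreated shCTRL library 2, with adjusted p up to 0.0887. ADGRE5 had -0.27 ± 0.05 (adjusted p = 0.0226), lost without IFNγ shINCA1 library 1, untreated shINCA1 library 1 or 3, any 1 of the IFNγ shCTRL libraries, or untreated shCTRL library 2, with adjusted p up to 0.0794.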

How the results depend on the processing

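Each count of called genes was compared with the value in the report under each alternative setting. Of these pairs of a count and a setting, 200 kept within 1.5 times and 18 did not (8 higher, 10 lower). At an adjusted p of 0.01 the other receptors called were 10 in place of 17 for IFNγ in shINCA1 cells, 21 in place of 35 in shCTRL cells and 3 in place of 7 for the difference of responses, and the signalling genes 5 in place of 13 and 16 in place of 34. With only the groups compared, 8 signalling genes were called for IFNγ in shINCA1 cells. For the difference of responses, the signalling genes called were 1 in place of 0 with DESeq2 size factors, with upper-quartile factors, with a filter of at least 1 CPM in 3 samples and with the replicate block, and 4 with the DESeq2 Wald test. Leaving out 1 library gave 7 to 13 signalling genes for IFNγ in shINCA1 cells (7 without untreated shINCA1 library 3, 8 without IFNγ shINCA1 library 1), 23 to 35 in shCTRL cells, 78 to 92 between lines with IFNγ, 75 to 92 without, and 0 to 1 for the difference of responses. Other receptors ranged over 12 to 18, 26 to 36, 84 to 88, 78 to 86 and 4 to 7, with 4 without untreated shINCA1 library 3 or IFNγ shCTRL library 1. Deviations of libraries from their group means had correlations of -0.036 to 0.067 over 18 same-numbered pairs. Over 36 differently numbered pairs they were -0.070 to 0.051. Counting error adds to these deviations, so the values show no clear pairing by number and cannot exclude one. The replicate block gave 17, 32 and 5 other receptors for IFNγ in shINCA1, IFNγ in shCTRL and the difference of responses. The causes were not tested. Of the 6 receptors' values, each taken under each setting, 611 moved by less than the spread between replicates and 23 by more. None changed sign among differences above 2 SE. The values of PTGFR and TACR1 that involve shINCA1 cells rest on so few counts that the fitted log2 differences moved with the tool and the library left out. Their line differences are therefore given as ratios with counting intervals or against the floor, and no IFNγ fold is given in shINCA1 cells. Low counts also limit CXCR4 in shINCA1 cells.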
